A study of Homo sapiens with 6 samples.

Results

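The 10 genes described here form the extrinsic arm of apoptosis and the proteins that hold it in check: the death receptors TNFRSF10A, TNFRSF10B and FAS, the decoy receptor TNFRSF10D, the adaptor FADD, the initiator caspase CASP8, its homologue CFLAR, and the inhibitor of apoptosis proteins (IAPs) XIAP, BIRC2 and BIRC3. They were taken by name from the 55401 genes listed in each library, and all 10 names were present. RNA had been sequenced from RMS13, an established rhabdomyosarcoma (skeletal muscle tumour) line, in 3 groups of 2 libraries. The first group was a derivative of RMS13 with acquired resistance to MAL3-101, given 10 µM MAL3-101 for 9 h. The second was the parental RMS13 line, given the same dose for the same time. The third was parental RMS13 with the solvent DMSO alone, also for 9 h. MAL3-101 inhibits HSP70, a protein-folding chaperone. The resistant line was analysed with the drug only, so what it carries at rest and how it responds cannot be told apart. How the resistance was derived, and whether the line is 1 clone or a pool, is not stated. Whether libraries A and B of a group came from separate cultures is not stated either, and p-values then measure only the spread between these libraries, which may be technical.

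A death receptor bound by its ligand gathers FADD, and FADD gathers CASP8, which cuts itself free and activates further caspases downstream. CFLAR resembles CASP8 but lacks a working protease site, and it competes with CASP8 at the receptor. XIAP binds and blocks caspases, CASP9 among them, whereas BIRC2 and BIRC3 are ubiquitin ligases that act on RIPK1 in the TNF receptor complex and restrain the alternative NF-kB pathway. In many cell types the stress factors ATF4 and DDIT3 raise TNFRSF10B, and NF-kB raises CFLAR, BIRC2 and BIRC3.

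The stretches of DNA just before 3 members are shown because BIRC2 and BIRC3 are neighbouring paralogues that were at very different levels in these cells, and because CFLAR and BIRC3 are textbook NF-kB targets. Each is the 250 bases before the annotated start of the gene, from RefSeq on GRCh38.p14, written 5′ to 3′ on the plus strand, and capitals mark a match to the NF-kB consensus on either strand. The CFLAR stretch is chr2:201118466-201118715, that of BIRC2 is chr11:102346964-102347213, and that of BIRC3 is chr11:102317234-102317483.
CFLAR: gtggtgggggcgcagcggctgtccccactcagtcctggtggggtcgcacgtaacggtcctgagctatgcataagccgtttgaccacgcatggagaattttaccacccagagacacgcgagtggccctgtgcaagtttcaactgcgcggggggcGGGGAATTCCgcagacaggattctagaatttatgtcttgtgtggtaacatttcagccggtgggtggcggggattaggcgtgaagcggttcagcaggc
BIRC2: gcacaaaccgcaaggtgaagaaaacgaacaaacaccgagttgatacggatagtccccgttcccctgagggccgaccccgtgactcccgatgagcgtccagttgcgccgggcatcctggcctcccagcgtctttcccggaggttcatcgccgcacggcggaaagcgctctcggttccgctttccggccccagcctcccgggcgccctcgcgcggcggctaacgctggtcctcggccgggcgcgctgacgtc
BIRC3: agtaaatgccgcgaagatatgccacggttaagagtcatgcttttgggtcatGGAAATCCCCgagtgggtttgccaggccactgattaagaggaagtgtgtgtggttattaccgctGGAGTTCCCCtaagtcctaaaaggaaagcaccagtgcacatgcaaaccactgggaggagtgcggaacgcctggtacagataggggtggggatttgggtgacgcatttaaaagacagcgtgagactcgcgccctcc

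The CFLAR stretch held 1 match, which began 97 bases before the start, and the BIRC3 stretch held 2, which began 199 and 135 bases before it. The BIRC2 stretch held 0, as did those of FAS, FADD, CASP8 and XIAP; those of the TNFRSF10 genes were not searched. Of all 35116 RefSeq promoters of the same length, 5.21% held a match. The 250 bases before BIRC2 had 33 CpG dinucleotides and 67.6% G or C, against 11 CpG and 52.4% for BIRC3, 17 CpG and 58.8% for CFLAR, and a median of 11 CpG and 58.0% over all promoters. Searches on both strands for TGATGNAA (a composite C/EBP-ATF site), TGANTCA (an AP-1 site) and GAANNTTC (the core of a heat shock element) found 1 TGANTCA match, in FAS, and none elsewhere among the 7 stretches. These motifs occur in 3.14%, 6.57% and 5.78% of all promoters. A match is a string of letters here, not a bound site.

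Levels are in TPM, transcript abundance scaled to a fixed library total and per length, so genes can be compared within a library. Pairs of values are for library A and then library B of a group. TPM keeps no depth, and the reads behind a value are unknown. Each library listed 13918 to 14334 genes at 1 TPM or more, and 0 of 30 housekeeping genes were at 0. The line's muscle lineage held: 7 of 9 markers reached 1 TPM, MYF5 was at 0 in all 6 libraries, MYF6 was at or near 0, and MYOD1 was at 486 and 484 TPM in resistant MAL3-101 libraries, 714 and 719 TPM in parental MAL3-101 libraries and 816 and 802 TPM in parental DMSO libraries. The other 6 were higher in both resistant than in both parental MAL3-101 libraries, such as MYOG at 669 and 688 TPM in resistant MAL3-101, 474 and 467 TPM in parental MAL3-101 and 522 and 320 TPM in parental DMSO libraries. The muscle list summed to 1890 and 1902 TPM in resistant MAL3-101, 1664 and 1659 TPM in parental MAL3-101 and 1874 and 1703 TPM in parental DMSO libraries. Leukocyte markers summed to 0.98 to 2.11 TPM and endothelial markers to 0.10 to 0.33 TPM over all libraries, with PTPRC at 0.06 TPM or less, CD3E at 0.08 TPM or less and VWF at 0.24 TPM or less. LYZ was the highest leukocyte marker, at 0.80 to 1.47 TPM. The 4 fibroblast markers summed to 3.33 and 2.80 TPM in resistant MAL3-101 libraries, 24.9 and 26.3 TPM in parental MAL3-101 libraries and 18.5 and 20.7 TPM in parental DMSO libraries. Not all followed the sum. DCN was at 0.57 and 0.39 TPM in resistant MAL3-101, 0.28 and 0.13 TPM in parental MAL3-101 and 0.10 and 0.46 TPM in parental DMSO libraries. THY1 was at 0 in both resistant libraries, 2.54 and 2.34 TPM in parental MAL3-101 and 5.49 and 7.14 TPM in parental DMSO libraries. The 4 epithelial markers, of which KRT5 was at 0 throughout, summed to 0.55 and 0.59 TPM, 6.08 and 6.13 TPM, and 3.87 and 3.58 TPM in the resistant MAL3-101, parental MAL3-101 and parental DMSO libraries. Mitochondrial ribosomal RNA took 0.784% and 0.767% of TPM in resistant MAL3-101 libraries, 1.92% and 1.97% in parental MAL3-101 libraries and 0.533% and 0.565% in parental DMSO libraries. The part of these shifts in the results was not tested, apart from the mitochondrial share: without mitochondrial transcripts, the same 3, 3 and 2 members passed the test in the 3 comparisons. In bulk RNA, fewer cells that express a gene and less RNA of it per cell cannot be told apart.

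Among the receptors of the 10 members, TNFRSF10B (DR5, a receptor for TRAIL) was the one well above the detection range. Its level was higher in drug-treated parental cells than in both other groups. It had 39.3 and 42.0 TPM in resistant MAL3-101 libraries, 84.1 and 83.2 TPM in parental MAL3-101 libraries, and 37.9 and 42.4 TPM in parental DMSO libraries. Both parental MAL3-101 libraries were high, and the resistant MAL3-101 and parental DMSO libraries overlapped. The means were 40.7 ± 1.90, 83.6 ± 0.643 and 40.2 ± 3.15 TPM in resistant MAL3-101, parental MAL3-101 and parental DMSO cells (SD, n = 2 libraries each).

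In limma's moderated test on log2(TPM + 1) over 15148 genes, with Benjamini-Hochberg adjustment and calls at an adjusted p under 0.05, TNFRSF10B rose in the parental line with MAL3-101 over DMSO by a log2 fold change of 1.04 ± 0.07 (SE; 95% interval 0.88 to 1.21; adjusted p = 9.87e-05). It was lower in resistant than in parental cells, both with MAL3-101, at -1.02 ± 0.07 (95% interval -1.19 to -0.86; limma, adjusted p = 3.68e-05). Resistant cells with MAL3-101 differed from parental cells with DMSO by 0.02 ± 0.07 (95% interval -0.15 to 0.18; limma, adjusted p = 0.836), which did not pass; the interval bounds any difference on this scale. That small value was -0.03 without resistant library B and -0.06 without DMSO library A. RHOBTB2 overlaps TNFRSF10B on the opposite strand in GENCODE 29, and strand use in counting is not stated. RHOBTB2 had 16.6 and 16.7 TPM in resistant MAL3-101, 14.7 and 16.4 TPM in parental MAL3-101 and 23.4 and 20.6 TPM in parental DMSO libraries, and was lower in parental cells with MAL3-101 over DMSO by limma (log2 fold change -0.47, adjusted p = 0.00697), the opposite direction to TNFRSF10B.

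**Figure D1:**
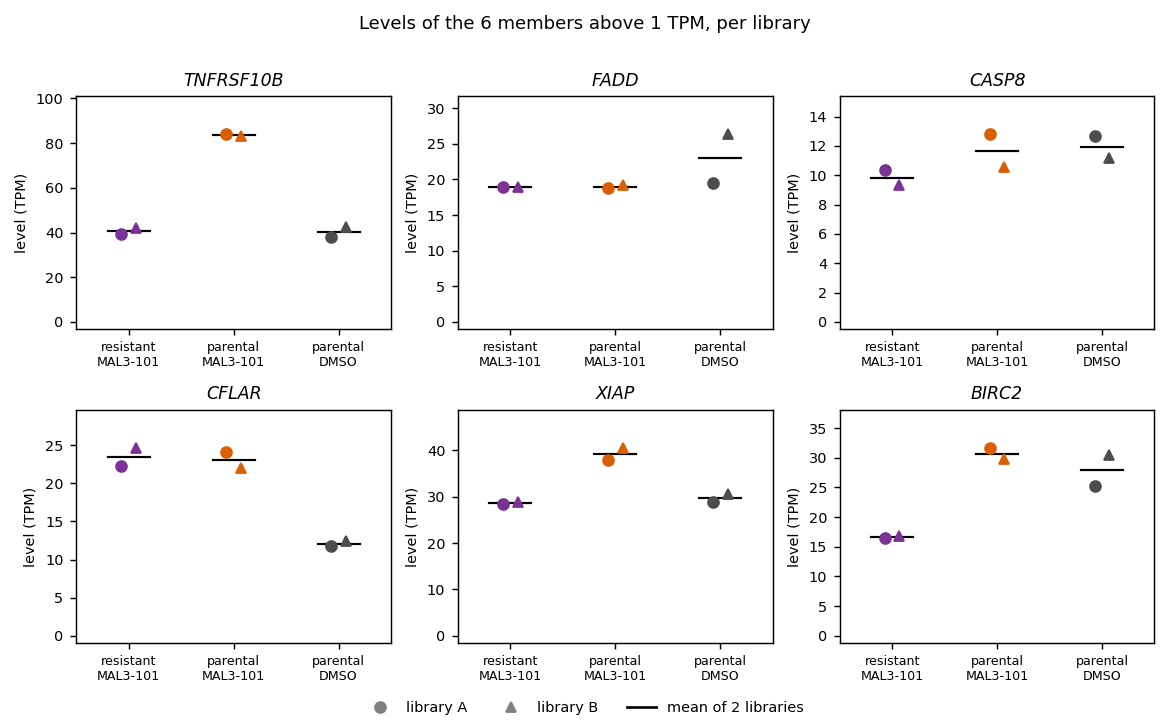
Levels in TPM (vertical axis, each starting near 0) of the 6 members above 1 TPM in the resistant MAL3-101, parental MAL3-101 and parental DMSO libraries (left to right). Points are single libraries (circle A, triangle B) and bars are means of 2; TNFRSF10B peaks at 84.1 and 83.2 TPM in parental MAL3-101 libraries, CFLAR is at 22.0 to 24.7 TPM in all MAL3-101 libraries against 11.8 and 12.4 TPM with DMSO, and BIRC2 is lowest at 16.5 and 16.7 TPM in the resistant libraries.

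The other receptors among the members were at or near the floor of the files. TNFRSF10A (DR4, the other signalling TRAIL receptor) was listed at 0 in all 6 libraries, and no fold is given. The annotation and counting settings behind the files are not stated, so a gene that was not counted cannot be told apart from one that was not expressed. TNFRSF10D (a decoy that binds TRAIL without passing on a death signal) was at 0 and 0.02 TPM in resistant MAL3-101, 0.04 and 0.07 TPM in parental MAL3-101 and 0.06 and 0.02 TPM in parental DMSO libraries. No library had more than 0.07 TPM of it.

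FAS, the receptor for FAS ligand, was at 0.16 and 0.06 TPM in resistant MAL3-101, 0.84 and 0.67 TPM in parental MAL3-101 and 0.58 and 0.93 TPM in parental DMSO libraries. Both resistant libraries were below all 4 parental ones, and the parental groups overlapped. FAS stayed under the filter of a group mean of 1 TPM and was not tested. With no filter, over 30480 genes, limma gave it a log2 fold change of -0.66 ± 0.14 (SE) in resistant over parental cells with MAL3-101 (adjusted p = 0.0216) and of -0.66 in resistant MAL3-101 over parental DMSO cells (adjusted p = 0.0254). ACTA2, which overlaps FAS on the opposite strand, was at 1.88 and 1.24 TPM in resistant MAL3-101, 2.67 and 1.65 TPM in parental MAL3-101 and 2.58 and 2.41 TPM in parental DMSO libraries, so reads of the pair cannot be told apart where counting ignored strand.

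**Figure D2:**
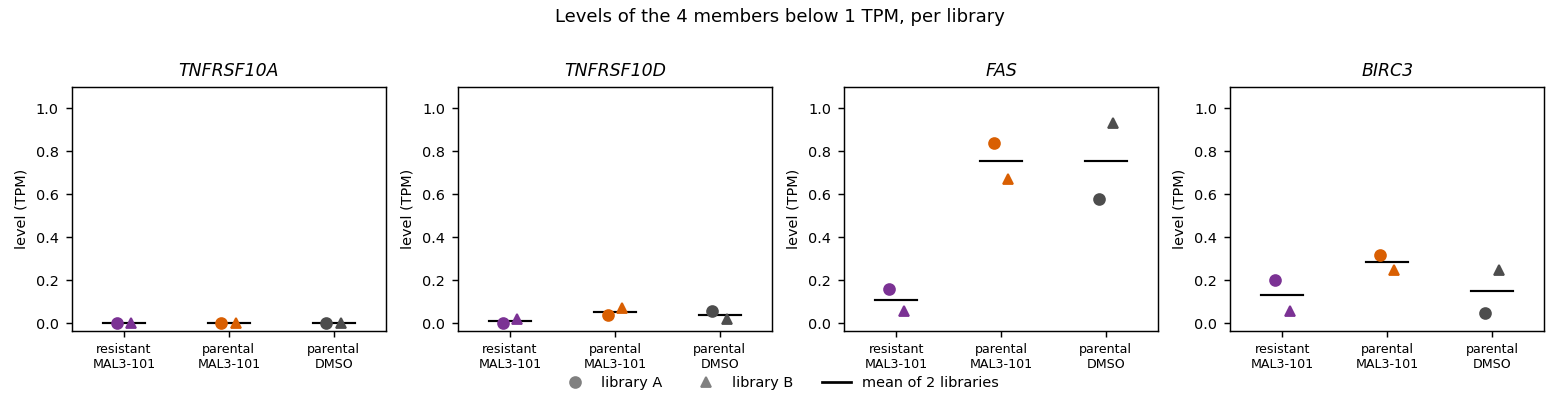
Levels in TPM (one common vertical axis) of the 4 members below 1 TPM, in the resistant MAL3-101, parental MAL3-101 and parental DMSO libraries (left to right; circle A, triangle B, bar the mean of 2). TNFRSF10A is at 0 in all 6 libraries, and FAS is at 0.06 and 0.16 TPM in the resistant libraries and between 0.58 and 0.93 TPM in the parental ones.

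At the receptor complex, neither FADD nor CASP8 passed the test in any comparison, while CFLAR was higher in either line with MAL3-101 than in parental cells with DMSO. FADD (the adaptor) was at 19.0 and 19.0 TPM in resistant MAL3-101, 18.7 and 19.2 TPM in parental MAL3-101 and 19.5 and 26.4 TPM in parental DMSO libraries. Its spread lay in the DMSO pair, whose libraries differed by 0.415 on the log2 scale, against a median difference of 0.153 over all tested genes in that pair. That median was smaller in the other pairs, at 0.077 in parental MAL3-101 and 0.069 in resistant MAL3-101. The fit shared a single spread over the groups, so the DMSO pair also entered FADD's interval between the lines. FADD's log2 fold change was -0.25 ± 0.13 in parental MAL3-101 over DMSO (SE; 95% interval -0.55 to 0.06; limma, adjusted p = 0.165), with the 95% interval -0.30 to 0.31 for resistant over parental cells with MAL3-101 (adjusted p = 0.993) and -0.55 to 0.06 for resistant MAL3-101 over parental DMSO cells (adjusted p = 0.150). Without DMSO library A the comparisons with DMSO did pass, at -0.46 in the parental line (adjusted p = 0.00158) and -0.45 for the resistant line (adjusted p = 0.00119).

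CASP8 was at 10.4 and 9.33 TPM in resistant MAL3-101, 12.8 and 10.6 TPM in parental MAL3-101 and 12.7 and 11.2 TPM in parental DMSO libraries. The resistant libraries were the 2 lowest, while the parental groups overlapped. CASP8's log2 fold change was -0.22 ± 0.12 in resistant over parental cells with MAL3-101 (SE; 95% interval -0.51 to 0.07; limma, adjusted p = 0.161), -0.03 ± 0.12 in parental MAL3-101 over DMSO (95% interval -0.32 to 0.26; adjusted p = 0.867) and -0.25 ± 0.12 in resistant MAL3-101 over parental DMSO cells (95% interval -0.54 to 0.04; adjusted p = 0.126).

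CFLAR (c-FLIP) was at 22.3 and 24.7 TPM in resistant MAL3-101, 24.2 and 22.0 TPM in parental MAL3-101 and 11.8 and 12.4 TPM in parental DMSO libraries. All 4 libraries with MAL3-101 were above both DMSO libraries, and the lines overlapped with each other. CFLAR rose by a log2 fold change of 0.88 ± 0.09 in parental MAL3-101 over DMSO (SE; 95% interval 0.67 to 1.08; limma, adjusted p = 0.000485), and was higher by 0.90 ± 0.09 in resistant MAL3-101 over parental DMSO cells (95% interval 0.69 to 1.11; adjusted p = 0.000198). Those 2 comparisons share the DMSO libraries. The resistant and parental lines with MAL3-101 differed by 0.02 ± 0.09 (95% interval -0.19 to 0.23; limma, adjusted p = 0.851), a value of -0.04 without parental MAL3-101 library B and -0.05 without resistant library B. Of the pair of members with the highest rise in the parental line, the resistant line with MAL3-101 had CFLAR at 23.5 ± 1.70 TPM against 23.1 ± 1.52 TPM in parental MAL3-101 cells, and TNFRSF10B at 40.7 ± 1.90 TPM against 83.6 ± 0.643 TPM (SD, n = 2 each). Whether the 2 genes differ in this was not tested. IMPDH1P10, a pseudogene, and CFLAR-AS1, an antisense RNA, overlap CFLAR on the opposite strand. IMPDH1P10 was at 0.91 and 0.94 TPM in resistant MAL3-101, 1.57 and 1.92 TPM in parental MAL3-101 and 0.20 and 0.18 TPM in parental DMSO libraries, low but in the same order of MAL3-101 over DMSO as CFLAR. CFLAR-AS1 ranged from 0.45 to 2.89 TPM.

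Set against CASP8, CFLAR was at a ratio of TPM of 2.15 and 2.64 in resistant MAL3-101, 1.89 and 2.09 in parental MAL3-101 and 0.934 and 1.11 in parental DMSO libraries. The DMSO libraries were near parity, and every MAL3-101 library was above them. TNFRSF10B over FADD was 2.07 and 2.22 in resistant MAL3-101, 4.49 and 4.34 in parental MAL3-101 and 1.94 and 1.61 in parental DMSO libraries, so the parental MAL3-101 pair was apart from the rest. These ratios were not tested.

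Among the IAPs, XIAP and BIRC2 were both expressed and both lower in resistant than in parental cells under MAL3-101, whereas BIRC3 was barely detected. XIAP had 28.5 and 28.8 TPM in resistant MAL3-101, 37.8 and 40.5 TPM in parental MAL3-101 and 28.9 and 30.6 TPM in parental DMSO libraries. Both parental MAL3-101 libraries were the highest, and the resistant libraries were just below the DMSO ones. XIAP rose by a log2 fold change of 0.38 ± 0.07 in parental MAL3-101 over DMSO (SE; 95% interval 0.23 to 0.54; limma, adjusted p = 0.00424) and was lower, at -0.44 ± 0.07 in resistant over parental cells with MAL3-101 (95% interval -0.60 to -0.28; adjusted p = 0.00128). Resistant MAL3-101 over parental DMSO gave -0.05 ± 0.07 (95% interval -0.21 to 0.10; limma, adjusted p = 0.529), a sign that turned with other scalings of the libraries, at 0.02 and 0.01.

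BIRC2 (cIAP1) was at 16.5 and 16.7 TPM in resistant MAL3-101, 31.7 and 29.7 TPM in parental MAL3-101 and 25.2 and 30.5 TPM in parental DMSO libraries. The resistant libraries were below all 4 parental libraries, and the parental groups overlapped. BIRC2 was lower, at -0.85 ± 0.10 in resistant over parental cells with MAL3-101 (log2 fold change, SE; 95% interval -1.08 to -0.62; limma, adjusted p = 0.000345) and at -0.71 ± 0.10 in resistant MAL3-101 over parental DMSO cells (95% interval -0.94 to -0.48; adjusted p = 0.000961). In the parental line, MAL3-101 over DMSO gave 0.14 ± 0.10 (95% interval -0.09 to 0.37; limma, adjusted p = 0.286), which did not pass, but reached 0.28 (adjusted p = 0.0189) without DMSO library B. BIRC2 was the only tested member that was lower in both comparisons of the resistant line; CASP8 and XIAP also had the resistant libraries lowest, but did not pass against DMSO.

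BIRC3 (cIAP2), whose promoter above held 2 NF-kB matches, was at 0.20 and 0.06 TPM in resistant MAL3-101, 0.32 and 0.25 TPM in parental MAL3-101 and 0.05 and 0.25 TPM in parental DMSO libraries, and was not tested. No library had more than 0.32 TPM of it. BIRC2 was at 16.5 TPM or more in every library. Whether the promoter sequences bear on these levels was not tested.

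XIAP, BIRC2 and BIRC3 together summed to 45.1 and 45.6 TPM in resistant MAL3-101, 69.8 and 70.5 TPM in parental MAL3-101 and 54.2 and 61.4 TPM in parental DMSO libraries. The means were 45.4 ± 0.325 TPM in resistant MAL3-101, 70.2 ± 0.516 TPM in parental MAL3-101 and 57.8 ± 5.10 TPM in parental DMSO cells (SD, n = 2 libraries each). The 3 groups did not overlap, with the resistant libraries lowest. XIAP over BIRC2 was 1.73 and 1.72 in resistant MAL3-101, 1.19 and 1.36 in parental MAL3-101 and 1.15 and 1.004 in parental DMSO libraries. XIAP thus made up 63.1% and 63.2% of the IAP sum in resistant MAL3-101, 54.2% and 57.5% in parental MAL3-101 and 53.4% and 49.9% in parental DMSO libraries. These ratios and shares were not tested.

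**Figure D3:**
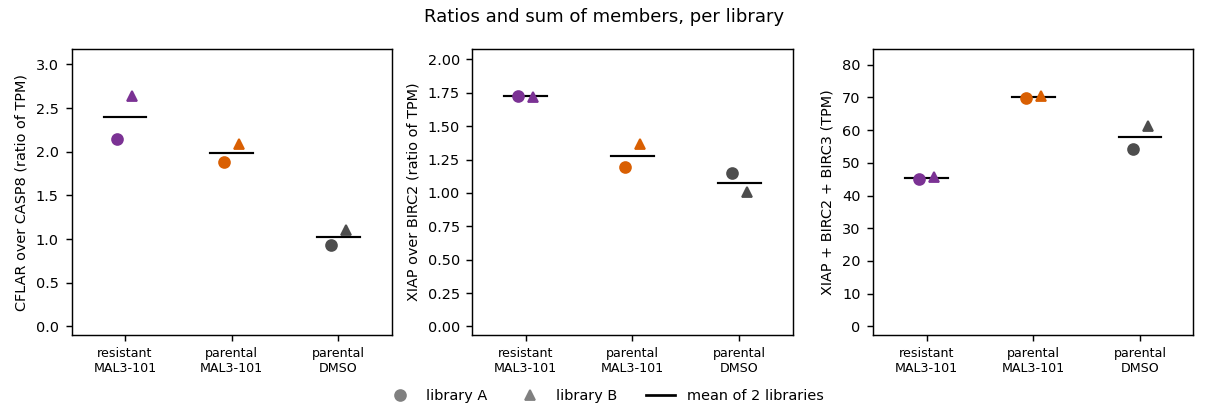
CFLAR over CASP8 and XIAP over BIRC2 (ratios of TPM) and the sum of XIAP, BIRC2 and BIRC3 (TPM), in the resistant MAL3-101, parental MAL3-101 and parental DMSO libraries (left to right; circle A, triangle B, bar the mean of 2; axes start near 0). CFLAR over CASP8 is 1.89 or more in each MAL3-101 library and 1.11 or less with DMSO, and the resistant libraries have the highest XIAP over BIRC2 (1.73 and 1.72) and the lowest sum (45.1 and 45.6 TPM).

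TNFRSF10B was the most abundant member in every library, and made up 28.9% and 29.9% of the TPM of all 10 members in resistant MAL3-101, 39.9% and 40.3% in parental MAL3-101 and 27.7% and 27.4% in parental DMSO libraries. XIAP came next, though in DMSO library B it was at 30.6 TPM beside BIRC2 at 30.5 TPM, a gap below the spread of BIRC2 in the DMSO pair (SD 3.75 TPM). CASP8 was the lowest of the 6 tested members in 5 libraries; in DMSO library A it was at 12.7 TPM, and CFLAR at 11.8 TPM was below it.

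Of the list as a whole, 6 of 10 members passed the filter on low values, and the 4 that did not were TNFRSF10A, TNFRSF10D, FAS and BIRC3. In parental MAL3-101 over DMSO, 3 rose (TNFRSF10B, CFLAR and XIAP), 0 fell and 3 did not pass, where 40.8% of all 15148 tested genes passed, 22.6% higher and 18.2% lower. The median log2 fold change of the 6 was 0.26, against 0.02 over all tested genes, and 4 of the 6 had libraries that did not overlap, against 69.8% of all genes. In resistant over parental cells with MAL3-101, 0 were higher, 3 were lower (TNFRSF10B, BIRC2 and XIAP) and 3 did not pass, where 56.1% of all genes passed, 21.3% higher and 34.8% lower. The median of the 6 was -0.33 against -0.10 over all genes, and 4 did not overlap, against 83.4%. In resistant MAL3-101 over parental DMSO cells, 1 was higher (CFLAR), 1 was lower (BIRC2) and 4 did not pass, where 50.6% of all genes passed, 20.9% higher and 29.7% lower. The median was -0.15 against -0.06, and 5 did not overlap, against 75.8%. On 6 genes, the shares of members called are near these backgrounds.

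In resistant over parental cells, the balance over all genes moved with the scaling of the libraries: 3228 higher and 5267 lower as deposited, 4236 and 4358 with median-ratio scaling, and 4348 and 4232 with upper-quartile scaling. The median over all genes moved likewise, to 0.01 with upper-quartile scaling in place of -0.10. The balance in parental MAL3-101 over DMSO was 3429 higher and 2752 lower as deposited, 3194 and 3130 with median-ratio scaling, and 2991 and 3413 with upper-quartile scaling. Resistant MAL3-101 over parental DMSO cells gave 3160 and 4502 as deposited, 3987 and 3843 with median-ratio scaling, and 3880 and 3927 with upper-quartile scaling. The 3 members lower in resistant over parental cells remained called in all 16 alternative settings, with log2 fold changes between -1.07 and -0.90 for TNFRSF10B, -0.89 and -0.72 for BIRC2, and -0.49 and -0.32 for XIAP.

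**Figure D4:**
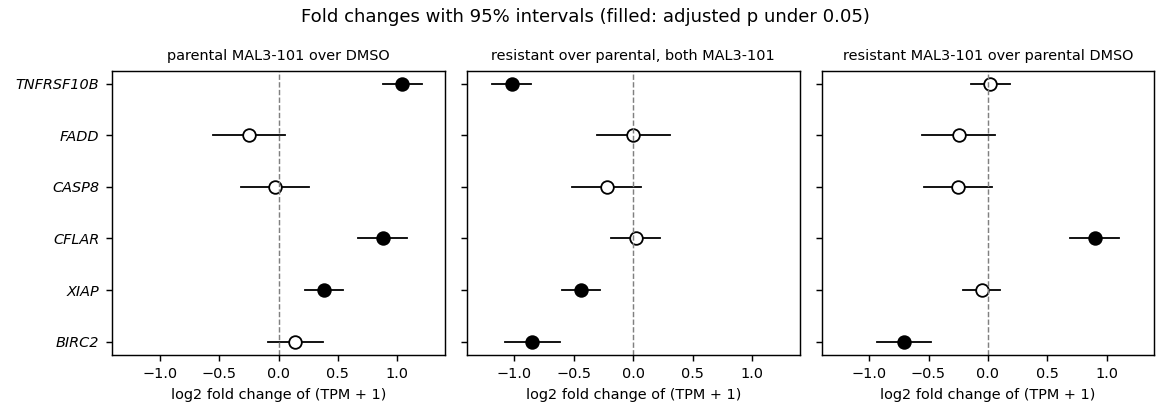
Log2 fold changes of (TPM + 1) with 95% intervals for the 6 tested members (rows) in the 3 comparisons (panels); filled points passed an adjusted p of 0.05 in limma. TNFRSF10B is at 1.04, -1.02 and 0.02, CFLAR at 0.88, 0.02 and 0.90, and BIRC2 at 0.14, -0.85 and -0.71 in parental MAL3-101 over DMSO, resistant over parental with MAL3-101, and resistant MAL3-101 over parental DMSO.

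Around the members, 75 other genes of the pathway were listed, all were found and 61 passed the filter. The lists were chosen with earlier results of these data known. Some pathway genes were left out after their values were known, so the counts of the lists are descriptions only. In parental MAL3-101 over DMSO, 28 rose and 10 fell. In resistant over parental cells with MAL3-101, 8 were up, 33 down and 20 past neither way, and in resistant MAL3-101 over parental DMSO cells 14 were up and 22 down. The list counts stand against the shares of all genes given above: 22.6% higher and 18.2% lower in the first comparison, 21.3% and 34.8% in the second and 20.9% and 29.7% in the third, with medians of 0.02, -0.10 and -0.06. Of the 61, EDAR, TRAF1 and SEPT4 averaged 1 TPM or more in 1 group only, so they passed the filter through the group where they were high and had to differ; their calls are counted but support nothing.

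The ligands of the death receptors were nearly silent. TNFSF10 (TRAIL) was at 0.03 and 0.07 TPM in resistant MAL3-101 libraries and at 0 in all 4 parental libraries, and FASLG (FAS ligand) was at 0 in all 6. Of 5 ligands, TNFSF15 (TL1A, a ligand of TNFRSF25) alone passed the filter, at 7.46 and 7.69 TPM in resistant MAL3-101, 1.74 and 1.62 TPM in parental MAL3-101 and 1.05 and 0.57 TPM in parental DMSO libraries. Both resistant libraries were the highest. Its log2 fold change was 1.68 ± 0.17 in resistant over parental cells with MAL3-101 (SE; limma, adjusted p = 0.000169) and 2.26 ± 0.17 in resistant MAL3-101 over parental DMSO cells (adjusted p = 5.82e-05), on a scale that understates changes of low genes. Over the alternative settings, which include other pseudocounts, the first ran from 0.91 to 2.11 and the second from 1.12 to 3.13. In parental MAL3-101 over DMSO it was 0.58 (limma, adjusted p = 0.0284), a call that held in 9 of 16 alternative settings and was lost without any one of the 4 MAL3-101 libraries or without DMSO library B.

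Of 10 other death and decoy receptors, 6 were tested: 0 rose and 2 fell in parental MAL3-101 over DMSO, and 1 was higher and 2 were lower in each comparison of the resistant line. Their median log2 fold changes were -0.23 in parental MAL3-101 over DMSO, -0.06 in resistant over parental cells and -0.30 in resistant MAL3-101 over parental DMSO cells. The counts rest on few libraries: in parental MAL3-101 over DMSO 0 fell without parental MAL3-101 library A or B and 3 fell without either DMSO library, with 1 higher without DMSO library A. In resistant MAL3-101 over parental DMSO cells 2 were higher without either DMSO library, and 4 were lower without DMSO library B. Between the lines with MAL3-101, 2 were higher with either scaling or without either DMSO library. TNFRSF1B (TNF receptor 2) was at 1.75 and 1.54 TPM in resistant MAL3-101, 4.27 and 4.21 TPM in parental MAL3-101 and 7.25 and 6.10 TPM in parental DMSO libraries, with a log2 fold change of -0.99 ± 0.13 in resistant over parental cells with MAL3-101 (SE; limma, adjusted p = 0.000743; -1.32 to -0.48 over the alternative settings). TNFRSF21 (DR6) was at 12.7 and 13.2 TPM in resistant MAL3-101, 18.6 and 18.8 TPM in parental MAL3-101 and 23.0 and 23.2 TPM in parental DMSO libraries, with -0.50 ± 0.07 in the same comparison (adjusted p = 0.00103). EDAR, the ectodysplasin A receptor, went the other way, at 2.13 and 2.37 TPM in resistant MAL3-101, 0.09 and 0.14 TPM in parental MAL3-101 and 0.05 and 0.02 TPM in parental DMSO libraries. TNFRSF1B and TNFRSF21 had both resistant libraries below every parental one. Of all tested genes, 83.4% did not overlap in resistant over parental cells, and 75.8% in resistant MAL3-101 over parental DMSO cells. EDAR's log2 fold change was 1.54 with a pseudocount of 1 TPM and between 0.50 and 3.46 over the alternative settings, a description only, since EDAR passed the filter through the resistant group alone. The TRAIL decoys TNFRSF10C (0.12 to 0.44 TPM) and TNFRSF11B (0.18 to 0.51 TPM) were low in all libraries and not tested. TNFRSF1A (TNF receptor 1) was at 51.85 and 51.98 TPM in resistant MAL3-101, 44.6 and 43.92 TPM in parental MAL3-101 and 45.61 and 54.35 TPM in parental DMSO libraries. NGFR was at 104.48 and 107.6 TPM, 99.5 and 102.21 TPM, and 138.47 and 55.5 TPM in the same groups. Neither TNFRSF1A nor NGFR passed the test in any comparison.

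Of 18 tested adaptors, kinases and complex regulators, 10 rose and 2 fell in parental MAL3-101 over DMSO, 2 were higher and 8 lower in resistant over parental cells with MAL3-101, and 3 were higher and 4 lower in resistant MAL3-101 over parental DMSO cells. The split moved with the scaling of the libraries. With upper-quartile scaling, the comparisons of the resistant line gave 5 higher and 6 lower against parental MAL3-101 cells, and 7 higher and 3 lower against DMSO cells. Without parental MAL3-101 library A or B, 5 and 6 rose in parental MAL3-101 over DMSO, and 0 and 1 fell. Leaving out any one of the 4 MAL3-101 libraries left 1 higher and 6 or 7 lower in resistant over parental cells, and leaving out DMSO library A gave 5 higher and 5 lower in resistant MAL3-101 over parental DMSO cells. The list's medians were 0.28 in parental MAL3-101 over DMSO, -0.17 in resistant over parental cells and 0.04 in resistant MAL3-101 over parental DMSO cells. DEDD2, a death effector domain protein that binds CASP8 and CASP10, had the same shape as TNFRSF10B: 16.9 and 19.1 TPM in resistant MAL3-101, 68.0 and 59.7 TPM in parental MAL3-101 and 18.6 and 17.1 TPM in parental DMSO libraries. The parental MAL3-101 pair was high and the other groups overlapped. Its log2 fold change was 1.78 ± 0.10 in parental MAL3-101 over DMSO (SE; limma, adjusted p = 3.75e-05) and -1.77 ± 0.10 in resistant over parental cells with MAL3-101 (adjusted p = 1.52e-05). TAB2, which links TRAF complexes to the kinase MAP3K7, was at 65.4 ± 2.001 TPM in resistant MAL3-101, 72.2 ± 0.693 TPM in parental MAL3-101 and 44.3 ± 4.16 TPM in parental DMSO cells (SD, n = 2 each), and rose by a log2 fold change of 0.70 in parental MAL3-101 over DMSO (limma, adjusted p = 0.000549).

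TNFAIP3 (A20, a ubiquitin-editing brake on NF-kB) was at 54.2 and 54.6 TPM in resistant MAL3-101, 111 and 111 TPM in parental MAL3-101 and 86.3 and 118 TPM in parental DMSO libraries. FAF1, a FAS-associated factor, was at 39.3 and 41.3 TPM in resistant MAL3-101, 73.4 and 77.5 TPM in parental MAL3-101 and 61.2 and 64.6 TPM in parental DMSO libraries. TRAF1, which binds BIRC2 and BIRC3 with TRAF2, was at 0.24 and 0.26 TPM in resistant MAL3-101, 3.07 and 2.45 TPM in parental MAL3-101 and 0.48 and 1.25 TPM in parental DMSO libraries. For TNFAIP3 and FAF1 the resistant libraries were lowest. In resistant over parental cells with MAL3-101 the log2 fold changes were -1.01 ± 0.13 for TNFAIP3 (SE; limma, adjusted p = 0.000489) and -0.89 ± 0.06 for FAF1 (adjusted p = 3.52e-05). TRAF1 was at -1.58, or -3.02 to -0.56 over the alternative settings, a description only, since it passed the filter through the parental MAL3-101 group alone. RIPK1, the kinase on which BIRC2 acts, was at 10.0 and 9.78 TPM in resistant MAL3-101, 7.72 and 8.05 TPM in parental MAL3-101 and 8.53 and 7.74 TPM in parental DMSO libraries. Its log2 fold change of 0.29 in resistant over parental cells (limma, adjusted p = 0.0391) did not pass without any one of the 4 libraries compared, with adjusted p between 0.113 and 0.177. CASP10, the closest relative of CASP8, was at 0.23 to 0.65 TPM and was not tested.

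Downstream of CASP8, the listed caspase and apoptosome genes moved in both directions. Of 8 tested genes, 2 were higher and 3 lower in resistant over parental cells with MAL3-101, 1 was higher and 5 lower in resistant MAL3-101 over parental DMSO cells, and 2 rose and 2 fell in parental MAL3-101 over DMSO. The counts over DMSO moved with the settings: without resistant library B, 3 were lower in resistant MAL3-101 over parental DMSO cells, and with upper-quartile scaling or without DMSO library B, 1 rose and 4 fell in the parental line. Without either parental MAL3-101 or either resistant library 1 rose, and without parental MAL3-101 library B 1 fell. The medians were -0.13 in parental MAL3-101 over DMSO, -0.06 in resistant over parental cells and -0.29 in resistant MAL3-101 over parental DMSO cells. CYCS (cytochrome c, which forms the apoptosome with APAF1 and CASP9) was at 211 and 216 TPM in resistant MAL3-101, 327 and 294 TPM in parental MAL3-101 and 343 and 337 TPM in parental DMSO libraries. Both resistant libraries were below every parental one. CYCS had a log2 fold change of -0.53 ± 0.06 in resistant over parental cells with MAL3-101 (SE; limma, adjusted p = 0.000250) and -0.67 ± 0.06 in resistant MAL3-101 over parental DMSO cells (adjusted p = 0.000114).

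CASP9, the initiator of the mitochondrial route and a target of XIAP, was at 17.2 and 16.5 TPM in resistant MAL3-101, 35.8 and 34.5 TPM in parental MAL3-101 and 21.9 and 19.0 TPM in parental DMSO libraries. It rose by a log2 fold change of 0.76 ± 0.09 in parental MAL3-101 over DMSO (SE; limma, adjusted p = 0.000784) and was lower, at -1.02 ± 0.09 in resistant over parental cells with MAL3-101 (adjusted p = 8.36e-05). DFFA, the inhibitor subunit of the caspase-activated DNase, was at 34.7 ± 0.445 TPM in resistant MAL3-101, 60.4 ± 3.95 TPM in parental MAL3-101 and 69.5 ± 3.78 TPM in parental DMSO cells (SD, n = 2 each), with -0.78 ± 0.07 in resistant over parental cells (limma, adjusted p = 9.68e-05). CASP6 moved against CASP9, at 21.3 and 22.7 TPM in resistant MAL3-101, 15.5 and 14.4 TPM in parental MAL3-101 and 14.0 and 13.2 TPM in parental DMSO libraries, with 0.53 ± 0.08 in resistant over parental cells (limma, adjusted p = 0.00154). BID, which CASP8 cuts to carry the signal to mitochondria, was at 27.3 and 26.4 TPM in resistant MAL3-101, 20.2 and 20.4 TPM in parental MAL3-101 and 34.1 and 32.9 TPM in parental DMSO libraries. BID's 3 groups did not overlap, and the parental MAL3-101 pair was lowest. Its log2 fold change was -0.70 ± 0.06 in parental MAL3-101 over DMSO (SE; limma, adjusted p = 0.000384), 0.39 ± 0.06 in resistant over parental cells with MAL3-101 (adjusted p = 0.00197) and -0.31 ± 0.06 in resistant MAL3-101 over parental DMSO cells (adjusted p = 0.00634), the last with an adjusted p of 0.0649 without resistant library B.

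Of 7 tested other IAPs and IAP antagonists, 2 rose and 3 fell in parental MAL3-101 over DMSO, 2 were higher and 4 lower in resistant over parental cells, and 2 were higher and 3 lower in resistant MAL3-101 over parental DMSO cells. The medians were 0.15, -0.21 and -0.01 in these comparisons. The counts moved when a library was left out. For parental MAL3-101 over DMSO 2 rose and 0 fell without parental MAL3-101 library A, 1 rose and 1 fell without library B, and 2 rose and 1 fell without either resistant library. Resistant over parental cells gave 1 higher and 2 lower without resistant library A or parental MAL3-101 library A, 2 and 1 without parental MAL3-101 library B, and 2 and 2 without resistant library B or with either scaling. Resistant MAL3-101 over parental DMSO cells gave 0 higher and 2 lower without either resistant library, and 1 and 2 without either parental MAL3-101 library. DIABLO (SMAC), the mitochondrial protein that displaces caspases from XIAP, was at 59.3 and 56.9 TPM in resistant MAL3-101, 95.3 and 99.5 TPM in parental MAL3-101 and 81.2 and 71.2 TPM in parental DMSO libraries. The resistant pair was lowest and the parental MAL3-101 pair highest, an order shared with the IAP sum. DIABLO's log2 fold change was -0.74 ± 0.07 in resistant over parental cells with MAL3-101 (SE; limma, adjusted p = 0.000162). In parental MAL3-101 over DMSO it was 0.35 (adjusted p = 0.00781), with an adjusted p of 0.0671 without parental MAL3-101 library B. BIRC5 (survivin) was the most abundant IAP, at 159 and 153 TPM in resistant MAL3-101, 126 and 139 TPM in parental MAL3-101 and 161 and 154 TPM in parental DMSO libraries. Its log2 fold changes of -0.25 in parental MAL3-101 over DMSO (limma, adjusted p = 0.0142) and 0.24 in resistant over parental cells (adjusted p = 0.0112) were each lost when parental MAL3-101 library A was left out, at adjusted p of 0.110 and 0.0917, and the second did not pass without resistant library A either, at 0.0913. BIRC6, a giant ubiquitin-conjugating IAP, was at 34.2 and 34.3 TPM in resistant MAL3-101, 39.1 and 40.6 TPM in parental MAL3-101 and 28.1 and 28.97 TPM in parental DMSO libraries, and rose by 0.47 ± 0.06 in parental MAL3-101 over DMSO (limma, adjusted p = 0.00121). XAF1, which antagonises XIAP, was at 0.64 and 0.54 TPM in resistant MAL3-101, 0.84 and 0.89 TPM in parental MAL3-101 and 0.05 and 0.04 TPM in parental DMSO libraries, under the filter.

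**Figure D5:**
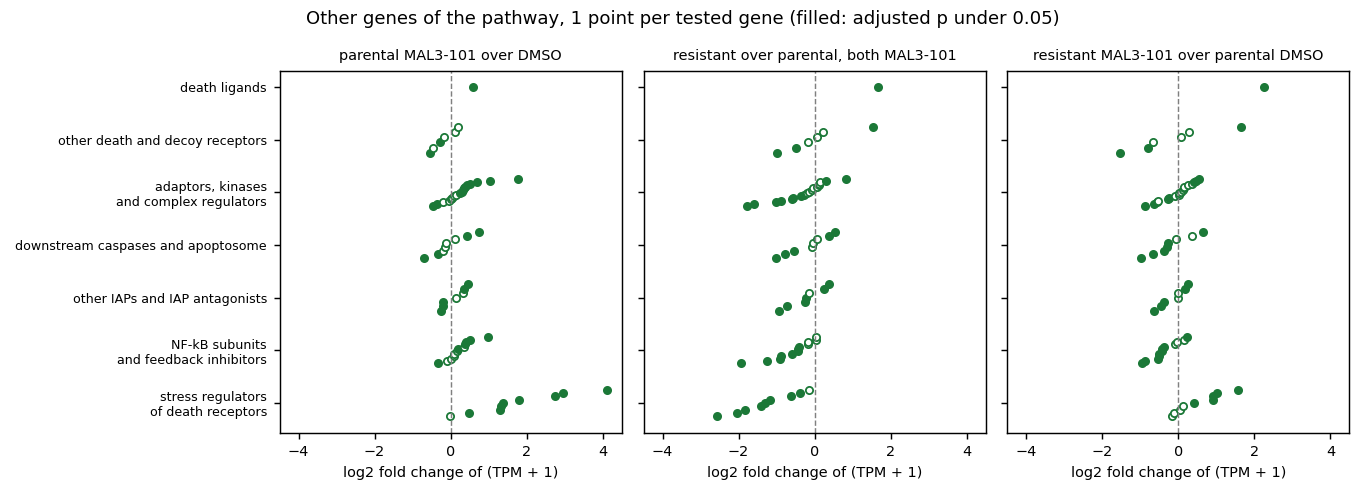
Log2 fold changes of (TPM + 1) of the 61 tested pathway genes outside the members, by list (rows) and comparison (panels); each point is a gene and filled points passed an adjusted p of 0.05 in limma. The stress genes sit mostly to the right in parental MAL3-101 over DMSO (8 higher, 0 lower) and to the left in resistant over parental cells (0 higher, 8 lower), where the NF-kB genes are also to the left (0 higher, 8 lower). Of all tested genes, 22.6% were higher in the former comparison and 34.8% lower in the latter.

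Most listed NF-kB genes were lower in resistant than in parental cells, both with MAL3-101. The list was chosen with earlier results of these data known, so its counts are a description only. Of 12 tested, 0 were higher and 8 lower in resistant over parental cells with MAL3-101, with a median log2 fold change of -0.44, where 34.8% of all genes were lower and their median was -0.10. In resistant MAL3-101 over parental DMSO cells 1 was higher and 8 lower, and 5 rose and 1 fell in parental MAL3-101 over DMSO. With median-ratio or upper-quartile scaling, 1 was higher and 7 lower in resistant over parental cells. In parental MAL3-101 over DMSO, 3 rose with upper-quartile scaling or without parental MAL3-101 library B or either resistant library, and 2 without parental MAL3-101 library A; 0 fell without either parental MAL3-101 library. In resistant MAL3-101 over parental DMSO cells, 0 were higher and 5 lower without resistant library B, 0 and 7 without resistant library A, and 2 and 9 without DMSO library A. The medians of these comparisons were 0.18 in parental MAL3-101 over DMSO and -0.43 in resistant MAL3-101 over parental DMSO cells. RELB, the subunit of the alternative pathway that BIRC2 restrains, was at 3.66 and 3.58 TPM in resistant MAL3-101, 17.7 and 15.7 TPM in parental MAL3-101 and 6.28 and 10.0 TPM in parental DMSO libraries. NFKB2, whose p100 product is RELB's partner, was at 23.0 and 22.3 TPM in resistant MAL3-101, 55.4 and 55.1 TPM in parental MAL3-101 and 41.6 and 43.04 TPM in parental DMSO libraries. Both had the resistant libraries lowest and the parental MAL3-101 libraries highest, with no overlap. In resistant over parental cells, RELB was at a log2 fold change of -1.94 ± 0.19 (SE; limma, adjusted p = 0.000165) and NFKB2 at -1.25 ± 0.06 (adjusted p = 9.09e-06). In parental MAL3-101 over DMSO, NFKB2 rose by 0.38 ± 0.06 (limma, adjusted p = 0.00254), and RELB by 0.98 ± 0.19 (adjusted p = 0.00634, or 0.0583 without parental MAL3-101 library A). MAP3K14 (NIK, the kinase of that pathway that BIRC2 and BIRC3 help to degrade) was at 7.86 ± 0.304 TPM in resistant MAL3-101, 15.4 ± 0.311 TPM in parental MAL3-101 and 12.0 ± 3.097 TPM in parental DMSO cells (SD, n = 2 each), with -0.89 ± 0.16 in resistant over parental cells (limma, adjusted p = 0.00242). NFKBIB, an inhibitor of the classical pathway, was at -0.90 ± 0.09 there (limma, adjusted p = 0.000180).

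The listed stress genes, MDM2 and CDKN1A among them, had the widest range. That list too was chosen with earlier results of these data known, so its counts are a description only. Of 9 tested, 8 rose and 0 fell in parental MAL3-101 over DMSO, with a median log2 fold change of 1.39, where 22.6% of all genes were higher. Between the lines with MAL3-101, 0 were higher and 8 lower in resistant cells, with a median of -1.31, where 34.8% of all genes were lower. For resistant MAL3-101 over parental DMSO cells, the share of all genes that were higher was 20.9%. Of the 9, 5 were higher and 0 lower in resistant MAL3-101 over parental DMSO cells, with a median of 0.40, and 6 were higher and 1 lower without DMSO library B. DDIT3 (CHOP), a stress factor that can act on the TNFRSF10B promoter, was at 370 and 401 TPM in resistant MAL3-101, 2260 and 2313 TPM in parental MAL3-101 and 132 and 128 TPM in parental DMSO libraries. Its log2 fold change was 4.12 ± 0.05 in parental MAL3-101 over DMSO (SE; limma, adjusted p = 1.18e-07), -2.57 ± 0.05 in resistant over parental cells with MAL3-101 (adjusted p = 6.65e-07) and 1.56 ± 0.05 in resistant MAL3-101 over parental DMSO cells (adjusted p = 3.73e-06). The resistant libraries had DDIT3 above the DMSO level, and their TNFRSF10B overlapped the DMSO level. Whether any of the stress genes acts on TNFRSF10B in these cells was not tested.

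ATF4, the translation-linked stress factor above DDIT3, was at 492 and 515 TPM in resistant MAL3-101, 656 and 653 TPM in parental MAL3-101 and 249 and 249 TPM in parental DMSO libraries, with no overlap between groups. Its log2 fold change was -0.38 ± 0.04 in resistant over parental cells (SE; limma, adjusted p = 0.000308) and 1.01 ± 0.04 in resistant MAL3-101 over parental DMSO cells (adjusted p = 8.59e-06). ATF3 and XBP1, further stress factors, rose by 2.97 and 2.74 in parental MAL3-101 over DMSO (limma, adjusted p = 7.75e-07 for both) and were lower, at -2.04 and -1.83 in resistant over parental cells (adjusted p = 1.51e-06 and 1.35e-06).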

How the data were processed

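Total RNA was sequenced with paired-end TruSeq libraries, per the labels' protocols. RSEM, DESeq and the build hg19 are named, per the submitters' processing notes; their roles and versions, the aligner, the annotation and strand use were not given in the sources used here. Per library, the authors deposited 1 table of TPM per gene name, summing to 1000000. TPM keeps no depth, so no counting interval or floor is given and no count model was run.

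Groups came from titles and descriptions. Since titles of the DMSO libraries name the drug too, their descriptions decided. A gene entered the test if any group averaged at least 1 TPM (15148 genes), as log2(TPM + 1), which understates changes of low genes. A single fit in limma 3.58.1 (R 4.3.3) covered the 3 groups with a variance trend (3 residual degrees of freedom). P-values were adjusted by Benjamini-Hochberg over all tested genes per comparison and called at 0.05. The fit was tested on simulated data of 15148 genes, of which 200 were changed. The changed genes were drawn only from those with a mean log2(TPM + 1) above 3, so recovery of low genes was not tested. In parental MAL3-101 over DMSO, the fit recovered 70.1% of those changed by 0.5, 86.6% by 1 and 98.5% by 2 on the log2 scale, and 3.41% of its calls were false. In resistant over parental cells it recovered 49.3%, 83.6% and 97.0% at these sizes with 6.13% of calls false, and in resistant MAL3-101 over parental DMSO cells 52.2%, 88.1% and 100% with 2.44% false. The data themselves gave 6181, 8495 and 7662 calls in these comparisons, so the simulated shares need not hold for them. Figures, promoters and gene overlaps were made in Python 3.11.15.

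The members and lists were chosen with earlier results of these data known. Named genes were all members, up to 4 called genes with the largest change per list, list genes with a known direct role towards a member, and the 3 genes closest to each tested member by Euclidean distance of centred log2(TPM + 1) profiles. Whether replicate letters pair libraries is not stated, and the main fit used no pairing. Deviations from group means correlated at -0.02, 0.03 and -0.02 between groups over all tested genes. Such values cannot exclude a pairing that touches few genes. Alternatives were other pseudocounts, filters, scalings, no trend, only the libraries compared, no mitochondrial transcripts, the replicate block and each library left out. RefSeq promoters were matched by symbol for 7 members. Some pathway genes are not reported here, and were left out of the lists and their counts after the values were known.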

Additional observations from a re-analysis of the deposited data

How the results depend on the processing

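All 8 calls of members kept their direction and stayed past the threshold in each of the 16 alternatives run; the highest adjusted p among them was 0.0472, for XIAP in parental MAL3-101 over DMSO. The replicate block left the counts of members called at 3, 3 and 2 in parental MAL3-101 over DMSO, resistant over parental with MAL3-101 and resistant MAL3-101 over parental DMSO, and gave 5942, 8381 and 7492 genes in all; with it, RIPK1 in resistant over parental cells had an adjusted p of 0.0569, and no other call printed for a named gene changed. Over the lists the block gave 1 higher and 3 lower downstream genes and 2 and 2 other IAPs in parental MAL3-101 over DMSO, 1 and 7 adaptors in resistant over parental cells, and 4 and 4 adaptors and 1 and 3 other IAPs in resistant MAL3-101 over parental DMSO cells; the other list counts did not move. With no filter, member counts were 3, 4 and 3. With the spread taken only from the libraries compared, member counts were 3, 3 and 2, and 4792, 10116 and 6770 genes were called in all. Leaving out 1 library, the genes called ranged from 3158 to 7708 in parental MAL3-101 over DMSO, where 3158 and 3353 came without parental MAL3-101 library A and B. They ranged from 4955 to 8675 in resistant MAL3-101 over parental DMSO, where 4955 and 5004 came without resistant library A and B. A group left with 1 library was assumed to vary like the others. The sum of XIAP, BIRC2 and BIRC3 was 47.2, 47.4 and 50.1 TPM in resistant MAL3-101 cells with median-ratio scaling, upper-quartile scaling and no mitochondrial transcripts, 67.7, 67.3 and 76.8 TPM in parental MAL3-101 cells, and 63.3 TPM in parental DMSO cells without mitochondrial transcripts; rescaling to fewer transcripts raises TPM by construction.

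Signs turned only for values that did not pass. Leaving out 1 library, log2 fold changes in parental MAL3-101 over DMSO ranged from -0.16 to 0.10 for CASP8 and from -0.10 to 0.023 for RIPK1. In resistant over parental cells FADD ran from -0.015 to 0.018 and CFLAR from -0.049 to 0.092. In resistant MAL3-101 over parental DMSO cells TNFRSF10B ran from -0.059 to 0.098 and BIRC5 from -0.043 to 0.024. In the same comparison BIRC5 was at 0.066 and XIAP at 0.019 with median-ratio scaling, BIRC5 at 0.057 and XIAP at 0.010 with upper-quartile scaling, and BIRC5 at 0.0015 without mitochondrial transcripts. The cause was not tested. TPM hides depth, so genes under 1 TPM are the least certain.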

Other observations

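Other genes followed the members' patterns closely over the 6 libraries. Nearest to TNFRSF10B by Euclidean distance of centred log2(TPM + 1) were OSGIN1 (0.0858), an oxidative stress-induced growth inhibitor, JMJD6 (0.101) and LRRC49 (0.105). JMJD6, a lysyl hydroxylase of the nucleus, was at 39.6 and 41.7 TPM in resistant MAL3-101, 90.7 and 88.0 TPM in parental MAL3-101 and 38.9 and 42.9 TPM in parental DMSO libraries, almost the level of TNFRSF10B itself. Nearest to CFLAR were RP5-1120P11.1 (0.179), FAM46A (0.201) and ERP44 (0.201), a chaperone of the early secretory pathway, at 44.2 and 44.0 TPM in resistant MAL3-101, 48.7 and 46.4 TPM in parental MAL3-101 and 25.9 and 25.4 TPM in parental DMSO libraries. Nearest to XIAP were AP3D1 (0.0738), TOM1L2 (0.0804) and IRX2 (0.0823). Nearest to BIRC2 were LRRC59 (0.117), RNF123 (0.117) and ZNHIT6 (0.126). FADD was nearest to ANKRD61 (0.0876), RTN4 (0.0990) and NOL6 (0.101), and CASP8 to TBC1D3F (0.118), a member of a multigene family whose reads may be split, MAFG-AS1 (0.127) and ZNF823 (0.132). The distances are descriptions over 6 libraries that share the groups. RP5-1120P11.1 (0.15 to 1.41 TPM) and ANKRD61 (0.63 to 1.33 TPM) were low, where log2(TPM + 1) understates changes. ANKRD61 passed the filter through the DMSO group alone.

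The nearest tested genes on the chromosome shared a member's direction in some cases and not in others. Of the tested genes nearest to XIAP, THOC2, STAG2 and C1GALT1C1 were lower in resistant over parental cells with MAL3-101, at log2 fold changes of -0.35, -0.30 and -0.45 (limma, adjusted p = 0.0126, 0.0209 and 0.0149), where XIAP was at -0.44, and SMARCA1 was at 0.25 (adjusted p = 0.296). In RefSeq order THOC2 and STAG2 were 6 and 4 genes from XIAP, while C1GALT1C1 and SMARCA1 were 38 and 52 genes away. C1GALT1C1 was also lower in parental MAL3-101 over DMSO, at -0.52 (limma, adjusted p = 0.0117), where XIAP rose by 0.38. FAM126B, before CFLAR, was at 0.61 in parental MAL3-101 over DMSO, 0.16 in resistant over parental cells and 0.76 in resistant MAL3-101 over parental DMSO cells (limma, adjusted p = 0.00587, 0.283 and 0.00142), where CFLAR was at 0.88, 0.02 and 0.90. Among the nearest tested neighbours of BIRC2 on chromosome 11, in RefSeq order, YAP1 and TMEM123 differed between resistant and parental cells with MAL3-101 by log2 fold changes of 0.07 and -0.03 (limma, adjusted p = 0.419 and 0.617), where BIRC2 was at -0.85, and DCUN1D5 was at -0.21 (adjusted p = 0.0283). ARHGAP42 was at -0.29 in the same comparison (limma, adjusted p = 0.0732). YAP1, TMEM123, DCUN1D5 and ARHGAP42 were 6, 1, 22 and 28 genes from BIRC2. CCND1 (cyclin D1) lay 14 genes before FADD in RefSeq order on chromosome 11. CCND1 was at 3.50 and 2.78 TPM in resistant MAL3-101, 37.3 and 36.8 TPM in parental MAL3-101 and 76.3 and 126 TPM in parental DMSO libraries, while FADD did not pass in any comparison. On chromosome 2, TRAK2 and STRADB, the nearest tested genes after CASP8, were higher in resistant over parental cells by 0.96 and 1.88 (limma, adjusted p = 7.68e-05 and 4.70e-05), and NDUFB3, the nearest tested gene before CFLAR, by 0.90 (adjusted p = 2.40e-05). CASP8 and CFLAR did not pass there, at -0.22 and 0.02. The neighbours named here were singled out after their values were seen.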
